A study of Homo sapiens with 4 samples.

Results

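The metallothioneins and the zinc genes that work beside them were followed in ACHN cells after PRR11 was silenced. The set held 9 genes, taken by name from the 36359 rows of the count table: the metallothioneins MT2A, MT1E, MT1M, MT1F, MT1X, MT1A and MT1G, the zinc exporter SLC30A1, and the transcription factor MTF1. ACHN is an established human renal carcinoma cell line. The cells received either a control siRNA (siNC, 2 libraries) or an siRNA against PRR11 (siPRR11, 2 libraries), and nothing else distinguished the groups in the labels. Which siPRR11 duplex was transfected, and how long before harvest, is not given in the sources used here. Separate cultures are not stated either, so the p-values measure the spread between these libraries, which may be technical.

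Metallothioneins are small cysteine-rich proteins of the cytosol and nucleus that bind zinc, copper and cadmium through their thiol groups, and they buffer these metals and react with oxidants. Their genes lie side by side on chromosome 16. When free zinc rises, MTF1 binds it, enters the nucleus and switches on genes that carry metal response elements, among them the metallothioneins and SLC30A1, which moves zinc out of the cell. Metallothioneins are best known from the kidney and liver, where they hold metals that would otherwise be toxic.

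The family members are near copies of each other, which bears on how their reads could be assigned. The coding sequences of MT2A, MT1E and MT1X from GENCODE 44 (GRCh38, plus strand of chromosome 16, coding exons joined) are shown to let the likeness be seen. MT2A and MT1E held the most family reads, and MT1X was the member whose counted exons overlap another gene. Capitals mark the bases at which MT1E or MT1X differs from MT2A.
MT2A: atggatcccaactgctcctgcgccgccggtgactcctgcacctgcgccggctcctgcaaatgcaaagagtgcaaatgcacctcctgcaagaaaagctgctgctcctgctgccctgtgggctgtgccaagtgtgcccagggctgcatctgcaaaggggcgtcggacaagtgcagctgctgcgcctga
MT1E: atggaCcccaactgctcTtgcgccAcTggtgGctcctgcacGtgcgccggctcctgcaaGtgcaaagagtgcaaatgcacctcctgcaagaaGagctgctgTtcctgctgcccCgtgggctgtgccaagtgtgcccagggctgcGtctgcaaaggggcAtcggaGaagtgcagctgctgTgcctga
MT1X: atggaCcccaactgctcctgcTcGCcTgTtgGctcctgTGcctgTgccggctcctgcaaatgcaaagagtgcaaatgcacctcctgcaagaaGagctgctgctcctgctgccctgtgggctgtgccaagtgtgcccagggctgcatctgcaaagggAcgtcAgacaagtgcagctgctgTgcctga
Each coding sequence had 186 bases. MT1E and MT1X each differed from MT2A at 14 of them, an identity of 92.5%. Over the other 4 metallothioneins, the identity to MT2A ran from 89.8% for MT1M to 95.2% for MT1G.

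Whole transcripts, coding bases included, were then compared by windows. Of all 50-base windows in the GENCODE 44 transcript of MT2A, 11.1% also occurred in the transcript of another gene, and the longest run that it shared was 68 bases, with the pseudogene MT2P1. For MT1E the share was 10.3%, with a longest run of 85 bases shared with MT1G. At a window of 100 bases no window of MT2A, MT1E, MT1M, MT1F, MT1A or MT1G was shared with another gene. The exception was MT1X, with 51.0% of 50-base and 22.0% of 100-base windows shared, the latter with a noncoding gene. Its longest run shared with that noncoding gene was 166 bases, and with another metallothionein 96 bases (MT1G). The windows do not separate copies elsewhere in the genome from transcripts that lie over the same bases. In the count table the noncoding row RP11-343H19.2 lies over 321 of the exonic bases of MT1X on the same strand. No window of SLC30A1 was shared at 50 bases. The read length is not given in the sources used here, so how many family reads could be placed on a single gene is uncertain.

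In the count table (GRCh38), the family cluster ran on chromosome 16 in the order MT2A (56608199 to 56609497), MT1E (56625475 to 56627112), MT1M (56632233 to 56633986), MT1A (56638666 to 56640087), MT1F (56657694 to 56660698), MT1G (56666731 to 56668065) and MT1X (56682424 to 56684196). All but MT1G are on the plus strand. SLC30A1 (211571568 to 211578742) and MTF1 (37809567 to 37859620) are both on the minus strand of chromosome 1.

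Promoter sequences from RefSeq (GRCh38.p14) were at hand for MT2A, MT1X, SLC30A1 and MTF1, and for none of MT1E, MT1M, MT1A, MT1F and MT1G. They are shown for the 3 members with a match to the core of the metal response element, which was searched as TGCACNC or TGCGCNC on both strands, with overlapping matches counted. The 250 bases before the annotated start site are printed 5′ to 3′ on the strand of the gene, and capitals mark the cores, read on either strand.
MT2A, chr16:56608334-56608583, plus strand: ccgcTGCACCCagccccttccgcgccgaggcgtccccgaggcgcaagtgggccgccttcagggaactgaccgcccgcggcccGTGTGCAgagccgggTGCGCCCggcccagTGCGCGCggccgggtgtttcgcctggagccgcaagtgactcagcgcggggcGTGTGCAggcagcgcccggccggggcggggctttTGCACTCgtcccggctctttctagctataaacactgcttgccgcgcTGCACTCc
MT1X, chr16:56682220-56682469, plus strand: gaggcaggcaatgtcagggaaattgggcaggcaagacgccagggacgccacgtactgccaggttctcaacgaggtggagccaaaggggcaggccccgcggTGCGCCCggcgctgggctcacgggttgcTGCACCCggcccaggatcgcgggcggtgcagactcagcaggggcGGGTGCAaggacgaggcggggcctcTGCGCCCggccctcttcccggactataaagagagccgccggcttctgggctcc
SLC30A1, chr1:211579162-211579411, minus strand: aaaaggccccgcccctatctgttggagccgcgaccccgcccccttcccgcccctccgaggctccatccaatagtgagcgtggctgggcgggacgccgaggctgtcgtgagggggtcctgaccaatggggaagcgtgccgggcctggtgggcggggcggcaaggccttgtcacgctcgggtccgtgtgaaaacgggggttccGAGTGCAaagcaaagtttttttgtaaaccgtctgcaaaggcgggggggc
The MT2A window held 7 cores, at positions from -246 to -8 relative to the start site. Among 35116 promoters of the same length, 0.0313% held 7 or more. MT1X held 4 cores and SLC30A1 held 1. At least 4 were held by 0.370% of promoters, and at least 1 by 24.8%. No core was found in the MTF1 window. These matches describe letters in the window and not binding. In the table, the exons counted for MT2A begin before the RefSeq start site and span the whole window. Those counted for MT1X and MTF1 begin within the last bases of their windows. The exons counted for SLC30A1 (minus strand) begin at 211578742, downstream of its whole window. Its count of cores therefore holds for the RefSeq start site and not for the start of the counted row.

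PRR11 itself was examined first, as the check of the labels. Its normalized level, in CPM (reads of the gene per 1000000 counted reads, after the TMM correction for library composition), read 41.3 and 40.4 in siNC and 15.3 and 14.02 in siPRR11. That left 35.9% of the control level (log2 fold change -1.48, SE 0.0909, adjusted p = 3.35e-06). Counted reads per library ran from 59003839 to 92612749, and edgeR's quasi-likelihood test covered 21630 genes, of which 16.7% changed at an adjusted p under 0.05. By direction, 9.14% of tested genes were lower and 7.61% higher, while limma on log2(RPKM + 1) gave another balance, 684 lower and 1091 higher against 1977 and 1645. The groups did not overlap in 58.4% of tested genes, so a lack of overlap alone says little with 2 libraries per group. The median log2 fold change of all tested genes was 0.00. The kidney and epithelial markers PAX8, PAX2, KRT8, KRT18, VIM and MET were all expressed. Among markers of other cells, PTPRC and PECAM1 stayed below 0.1 CPM and VWF between 0.171 and 0.318, CD68, a lysosomal glycoprotein, stood between 45.2 and 60.1, and HBB was not analysed here.

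Of the 9 genes, 8 had enough reads to be tested and 1 changed, MT2A, which was lower in siPRR11. Background rates for such calls are the 16.7% and 9.14% above. The groups did not overlap in 4 of the 8, against 58.4% of all tested genes. The median log2 fold change of the 8 genes was -0.09, with 5 below 0 and 3 above.

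MT2A, the most widely expressed human metallothionein, dominated the family. Its level was 1160 and 895 CPM in siNC and 566 and 533 CPM in siPRR11. Both silenced libraries lay below both controls, although the controls were themselves further apart than the silenced pair. The group means were 1028 ± 188 and 549 ± 23.2 CPM (SD, n = 2 each), so 53.4% of the control level was left. In bulk RNA, a lower level in every cell and fewer cells that express the gene cannot be told apart. The log2 fold change was -0.90 (SE 0.106, 95% interval -1.13 to -0.67, adjusted p = 0.000229 by edgeR's quasi-likelihood test over all tested genes). Per exonic length, in RPKM (reads per kilobase of exon and 1000000 counted reads), MT2A stood at 879 and 677 in siNC and at 443 and 416 in siPRR11. Among all rows ranked by mean RPKM, it was number 38 in siNC and number 84 in siPRR11. MT2A was called under all 11 alternative settings, with log2 fold changes from -1.08 without siNC replicate 2 to -0.71 without siNC replicate 1.

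MT1E was the other metallothionein expressed at a high level. It measured 57.9 and 52.7 CPM in siNC and 49.2 and 50.6 CPM in siPRR11. The silenced libraries again lay below the controls, with a gap between the groups that was smaller than the difference between the controls. Its log2 fold change was -0.15 (SE 0.0815, adjusted p = 0.25, edgeR), with a 95% interval from -0.33 to 0.03. The interval of MT1E does not reach that of MT2A.

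The remaining MT1 genes were expressed at low levels, and none passed the test. MT1M gave 4.06 and 3.92 CPM in siNC and 3.46 and 4.03 CPM in siPRR11. MT1F gave 3.95 and 3.14 CPM in siNC and 3.26 and 3.50 CPM in siPRR11. MT1X gave 3.27 and 2.59 CPM in siNC and 2.55 and 3.37 CPM in siPRR11. In all 3 genes the groups overlapped. Their log2 fold changes were -0.09 (95% interval -0.42 to 0.24), -0.08 (-0.44 to 0.28) and 0.00 (-0.41 to 0.42), with edgeR adjusted p-values of 0.732, 0.797 and 0.991. These intervals leave room for changes of moderate size either way, but none reaches the fitted value of MT2A.

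MT1A and MT1G were close to the detection limit. For MT1A, 34 and 11 reads were counted in siNC and 20 and 24 in siPRR11, and the log2 fold change of -0.34 had a wide 95% interval, from -1.41 to 0.73 (edgeR adjusted p = 0.695). A change as large as that of MT2A was therefore not detectable in MT1A at this depth. MT1G was counted 0 and 2 times in siNC and 0 times in both siPRR11 libraries. A count of 0 allows up to 3 reads, which is 0.0318 to 0.0517 CPM per library, so MT1G was at or under this limit in all 4 libraries and is given no fold change. In these counts 76.5 to 78.0% of the values from 1 to 20 were even numbers, so single reads were not counted independently and such limits cover counting error only.

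The MT1X row needs a separate remark. RP11-343H19.2, the overlapping noncoding row, was counted 245 and 142 times in siNC and 213 and 256 times in siPRR11, against 267, 150, 240 and 288 for MT1X. Across the table, 575 of the 589 rows whose exons lie wholly within same-strand exons of other rows had counts, so a read on shared bases was counted for more than one gene. Part of the MT1X counts therefore recurs in the RP11-343H19.2 counts, and from these 2 rows the transcripts cannot be told apart. The exons of the other 8 genes overlap no other row of the table on either strand.

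**Figure D1:**
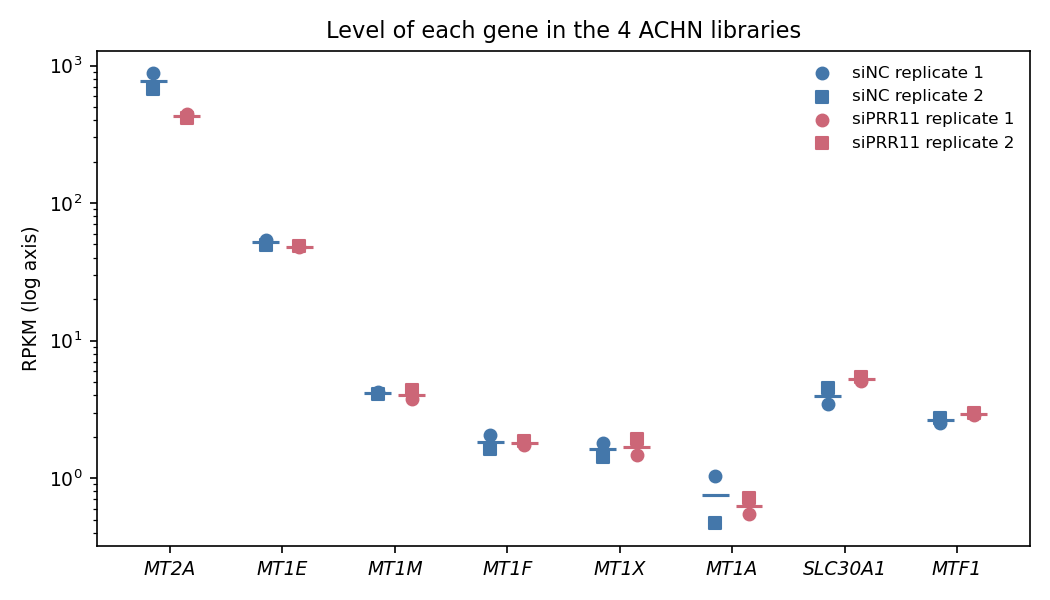
Level of 8 genes in each of the 4 libraries, in RPKM on a log axis. Points are libraries (circles replicate 1, squares replicate 2), bars are group means, and MT1G is left out because 3 libraries had no read; MT2A is the only gene of the 8 above 60 RPKM, and the siNC and siPRR11 points of MT1M, MT1F, MT1X and MT1A overlap.

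SLC30A1 encodes the plasma membrane exporter that carries zinc out of the cell. It measured 19.2 and 25.2 CPM in siNC and 27.3 and 29.1 CPM in siPRR11. Both silenced libraries were above both controls, and the controls were further from each other than the lower silenced library was from the upper control. The log2 fold change was 0.35 (SE 0.119, 95% interval 0.09 to 0.61) and the edgeR adjusted p of 0.0667 missed the threshold. The value moved with the control libraries. Without siNC replicate 2 the log2 fold change was 0.55 (adjusted p = 0.000244), and without siNC replicate 1 it was 0.16 (adjusted p = 0.316). SLC30A1 also passed with DESeq2 (adjusted p = 0.0445) and without a filter on low counts (adjusted p = 0.00946). Over the 11 alternatives the adjusted p ran from 3.09e-05 to 0.316, with a positive fold change in each.

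MTF1, the zinc sensor itself, measured 20.5 and 22.5 CPM in siNC and 22.6 and 23.6 CPM in siPRR11. The groups did not overlap, though the nearest libraries were almost equal. Its log2 fold change was 0.10 (SE 0.0934, 95% interval -0.10 to 0.31, edgeR adjusted p = 0.498).

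**Figure D2:**
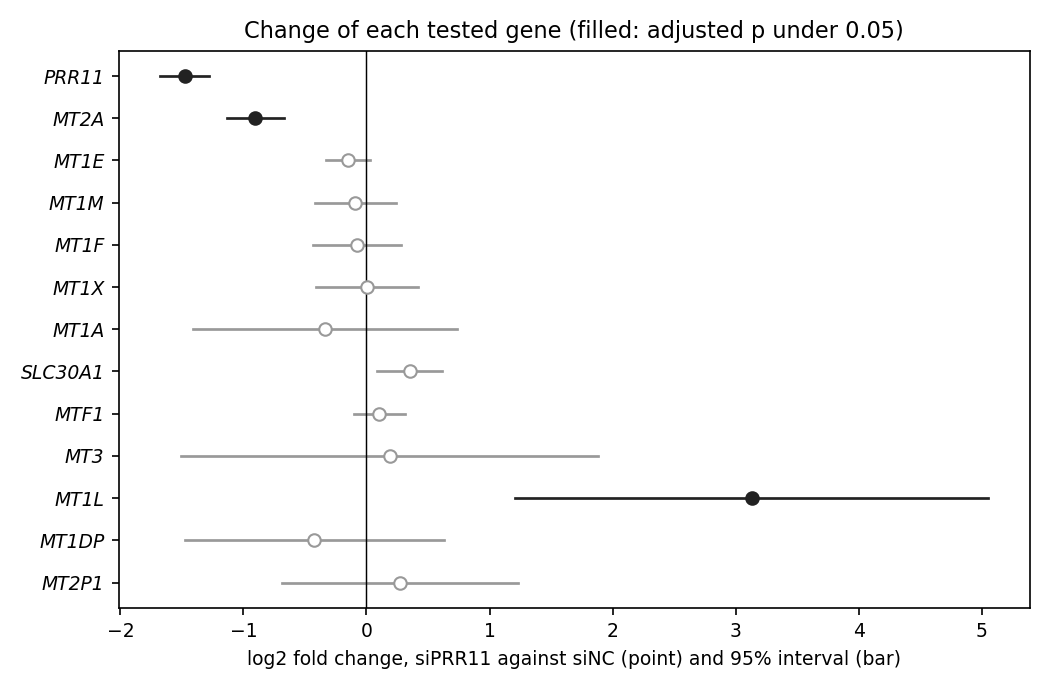
Log2 fold change of siPRR11 against siNC (x axis; points) with its 95% interval (bars) for PRR11, the 8 tested genes and 4 further metallothionein rows. Filled points have an adjusted p under 0.05: PRR11 at -1.48, MT2A at -0.90 and MT1L at 3.13, the last on few reads and tested only because of its siPRR11 reads.

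By level per exonic length, averaged over the 4 libraries, the order was MT2A (604 RPKM), MT1E (49.97), SLC30A1 (4.61), MT1M (4.10), MTF1 (2.78), MT1F (1.83), MT1X (1.66), MT1A (0.692) and MT1G (0.0113). In every library MT2A stood above MT1E and MT1E above all the rest. SLC30A1 and MT1M changed places between libraries, with SLC30A1 at 3.45 and MT1M at 4.24 RPKM in siNC replicate 1 but 5.40 and 4.35 in siPRR11 replicate 2. MT1F and MT1X also overlapped across libraries. These levels depend on the exonic length in the table, which for MT2A is 1299 bases against 401 for its GENCODE 44 transcript.

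Ratios of reads within a library do not depend on scaling between libraries. For each read of MT1E, MT2A had 20.05 and 16.97 reads in siNC and 11.5 and 10.5 reads in siPRR11. Against MT1F it had 294 and 285 in siNC and 174 and 152 in siPRR11. MT2A to MT1M and MT2A to MT1X followed the same order, at 229 to 355 in siNC and 132 to 222 in siPRR11. All 4 ratios were thus lower in both silenced libraries than in both controls. MT1E to MT1M, a ratio without MT2A, was 14.3 and 13.5 in siNC and 14.2 and 12.6 in siPRR11, and overlapped. An exact two-sided permutation test gave p = 0.333 for each ratio with MT2A, the smallest value that 2 libraries against 2 allow, and p = 0.667 for MT1E to MT1M.

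**Figure D3:**
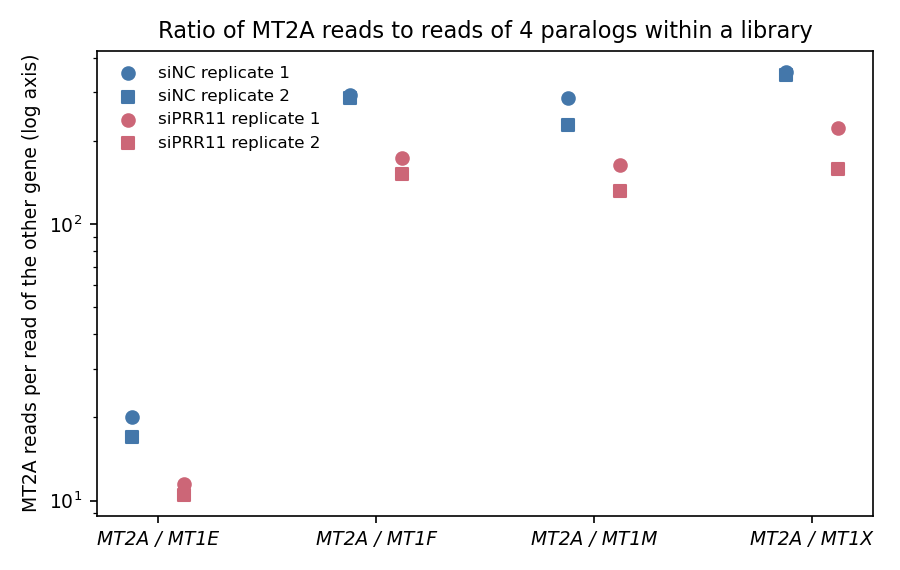
Reads of MT2A per read of MT1E, MT1F, MT1M or MT1X within each library, on a log axis. Each point is 1 library; for every paralog both siPRR11 points lie below both siNC points.

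The sum of the family does not depend on how reads were split among the paralogs, if each read was counted once. Whether reads that match several paralogs were dropped or counted more than once is not known here. All 17 metallothionein rows together had 1231 and 958 CPM in siNC and 625 and 596 CPM in siPRR11, a log2 ratio of the group means of -0.84. They took 0.121% and 0.0942% of all counted reads in siNC and 0.0637% and 0.0604% in siPRR11. MT2A supplied 94.3% and 93.4% of the family reads in siNC and 90.4% and 89.5% in siPRR11. Without MT2A the other 16 rows summed to 70.5 and 63.4 CPM in siNC and to 59.8 and 62.8 CPM in siPRR11, a log2 ratio of -0.13. As the reads were assigned, the fall of the family sum lay almost wholly in the MT2A row.

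Besides the 7 genes above, 10 further rows carried metallothionein names, most of them pseudogenes, and 4 had enough reads to be tested. MT1L was counted 4 and 0 times in siNC and 34 and 13 times in siPRR11. It had enough reads to enter the test through the siPRR11 libraries alone, so the fitted log2 fold change of 3.13 (SE 0.881, edgeR adjusted p = 0.0306) is given as a description. The call was lost without siPRR11 replicate 1 (adjusted p = 0.259), without siNC replicate 2 (adjusted p = 0.0717) and with limma on log2(RPKM + 1) (adjusted p = 0.0749). The fitted value moved between 2.36 and 7.36 as single libraries were left out, the highest without siNC replicate 1, and on so few reads it depends on the prior count. MT3, MT1DP and MT2P1 had between 4 and 31 reads per library and were not called. MT1H, MT1XP1, MT1JP, MT1CP, MT1P3 and MT1P1 had at most 8 reads in any library and were not tested.

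The zinc transporters were counted as a list, with SLC30A1 kept apart. Of 9 other genes listed as zinc exporters, 8 had a row and 6 were tested, and 1 rose and none fell. It was SLC30A6, a Golgi transporter, with 10.8 and 10.2 CPM in siNC and 15.9 and 13.3 CPM in siPRR11 (log2 fold change 0.47, SE 0.115, adjusted p = 0.0152). The median log2 fold change of the 6 was 0.15. Of 14 zinc importers, which bring zinc into the cytosol, 11 were tested, and 3 fell and none rose. The median over these 11 was -0.12, against 0.00 for all tested genes.

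SLC39A11 fell from 14.5 and 16.8 CPM to 11.3 and 11.6 CPM (log2 fold change -0.45, adjusted p = 0.0143). SLC39A6 fell from 162 and 160 CPM to 141 and 129 CPM (-0.25, adjusted p = 0.042). SLC39A14, which also carries iron and manganese, fell from 57.5 and 56.7 CPM to 48.8 and 47.4 CPM (-0.25, adjusted p = 0.0477). These calls are from edgeR's quasi-likelihood test, and those of SLC39A6 and SLC39A14 were small changes close to the threshold. Together the 2 lists gave 4 calls among 17 tested genes, against 16.7% of all tested genes called, 7.61% higher and 9.14% lower. No call of these 4 was left without siPRR11 replicate 1, and none with limma on log2(RPKM + 1) or log2(RPKM + 0.1).

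Metallothioneins also hold copper, and 4 of 7 copper-handling genes changed, 3 upward and 1 downward, against 16.7% of all tested genes called, 7.61% higher and 9.14% lower. The copper-exporting ATPases went opposite ways. ATP7B had 7.04 and 4.97 CPM in siNC and 10.8 and 10.4 CPM in siPRR11 (log2 fold change 0.81, SE 0.151, adjusted p = 0.00358). ATP7A had 5.26 and 4.92 CPM in siNC and 3.26 and 2.79 CPM in siPRR11 (-0.75, SE 0.15, adjusted p = 0.00559). COX17, which brings copper to cytochrome oxidase, rose by a log2 fold change of 0.44 (adjusted p = 0.00493), and ATOX1, the chaperone that feeds the ATPases, by 0.30 (adjusted p = 0.042). The uptake transporter SLC31A1 had a log2 fold change of -0.20 and was not called (adjusted p = 0.116), nor were SLC31A2 and CCS. The call of ATOX1 was lost without siNC replicate 2, without siPRR11 replicate 1 and without siPRR11 replicate 2 (adjusted p = 0.149, 0.1495 and 0.226). With limma on log2(RPKM + 1) or log2(RPKM + 0.1), 1 call of the 4 was left, that of COX17.

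Genes on either side of the metallothionein cluster were counted as a list as well. Of 8 such neighbours, 1 passed, SLC12A3, with 1.09 and 0.759 CPM in siNC and 1.70 and 1.58 CPM in siPRR11 (log2 fold change 0.81, edgeR adjusted p = 0.0413). SLC12A3, a sodium and chloride cotransporter of the kidney tubule, moved in the other direction to MT2A, and its call was lost with DESeq2 (adjusted p = 0.0708), with both limma fits, and without siNC replicate 2, siPRR11 replicate 1 or siPRR11 replicate 2. The other 7 had log2 fold changes between -0.12 and 0.27. No neighbour was called lower. Over all tested genes 16.7% were called, 7.61% higher and 9.14% lower. Whether the region moved as a whole was not tested.

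MT2A is a textbook glucocorticoid target, so glucocorticoid-regulated genes were counted as well. None of the 7 tested was called by edgeR, against 16.7% of all tested genes. In edgeR's test 3 of the 7 had an unadjusted p under 0.05 (FKBP5 and SGK1 above 0, KLF9 below), against 30.3% of all tested genes. DESeq2 called 1, edgeR without the filter on low counts called 1, edgeR with each library left out called 1 to 2, and neither limma fit called any. The receptor NR3C1 measured 20.5 and 25.03 CPM in siNC and 22.4 and 22.5 CPM in siPRR11. Of 9 genes induced by metals or oxidants, 5 fell and none rose, against 9.14% of all tested genes called lower, and the median log2 fold change was -0.51 against 0.00 for all tested genes. They were SRXN1 (-0.91), SLC7A11 (-0.84), TXNRD1 (-0.74), GCLM (-0.52) and HMOX1 (-0.51), with edgeR adjusted p-values from 0.000876 to 0.00614. The heat shock genes HSPA1A and HSPA1B, which heavy metals also induce, had log2 fold changes of -0.04 and -0.09 and overlapping groups, GCLC had -0.05 with overlapping groups, and NQO1, a quinone reductase, had -0.17 (adjusted p = 0.176); none of these 4 was called. Without siNC replicate 1, 8 of the 9 were called, and with limma on log2(RPKM + 1) or log2(RPKM + 0.1), 2 were.

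The genes whose profile over the 4 libraries lay closest to that of MT2A were AAMDC (distance 0.0798 on the centred log2 CPM scale), RPS6KA4, a kinase (0.101), and RP11-216L13.19 (0.122), among 14192 genes compared. AAMDC measured 6.02 and 4.61 CPM in siNC and 3.09 and 2.76 CPM in siPRR11. Closest to SLC30A1 were SHISA9 (0.0345), STARD4, a sterol carrier protein (0.0346), and RPL9P7 (0.0400), and 43 genes lay within 0.1 of it. For MT1X the closest was RP11-343H19.2 (0.0738), the overlapping row, followed by PIM2, a kinase (0.0850), and ABHD1 (0.0863). With 4 libraries such likeness is a description of the profiles only.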

How the data were processed

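RNA from ACHN cells was made into 4 libraries with a stranded mRNA kit. The authors trimmed reads with Trimmomatic 0.36, mapped these with STAR to the GRCh38 assembly, and used featureCounts (Subread 1.5.1) for counting. They deposited raw read counts per gene and RPKM values of the same genes. The RPKM equal the count per exonic length and column total to within 0.000497% over 15916 rows. Neither the annotation release, nor the read length, nor whether counting used strand is given in the sources used here. All columns were used.

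Genes were tested with edgeR 4.0.16 (R 4.3.3) by the quasi-likelihood test, with TMM normalization, filterByExpr and condition as the only term, and p-values were adjusted by Benjamini-Hochberg over 21630 of 36359 genes. Alternatives were RLE normalization, no filter, at least 10 counts in every library, DESeq2 1.42.0, limma 3.58.1 (with a variance trend) on log2(RPKM + 1) and log2(RPKM + 0.1), the replicate number as a term, and each library left out, where the lone library is assumed to vary like the other group. Scripts were tested on simulated data. Library totals were 83068637 and 59003839 reads in siNC and 92612749 and 84279389 in siPRR11. Replicates differed by more than sampling noise.

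The genes named were PRR11, the 9 genes of the set, all other metallothionein rows, the called genes of each list, and the 3 nearest profiles of MT2A, MT1X and SLC30A1 (average log2 CPM of at least 1). The set and the lists were chosen with earlier results of these data known. Values named outside this rule were chosen after they were seen. No protein sequence was compared; coding bases were used instead. Nearest profiles were measured by Euclidean distance.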

Additional observations from a re-analysis of the deposited data

How the results depend on the processing

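The call of MT2A, and the direction of MT2A, MT1E, SLC30A1 and MTF1, held in all 11 alternatives. SLC30A1 passed the threshold, at a log2 fold change of 0.35, without the filter on low counts and with DESeq2, and leaving out each library gave 0.16 to 0.55. The number of the 9 genes called was then 2, and 1 to 2 with a library left out. In 5 uncalled genes the sign turned when a library was left out, with ranges of -0.76 to 0.37 for MT1A, -0.23 to 0.10 for MT1F, -0.21 to 0.017 for MT1M, -0.21 to 0.20 for MT1X and -1.18 to 0.92 for MT3, which included -0.12. Calls over all genes fell to 1775 with limma on log2(RPKM + 1), with 1091 higher and 684 lower, and to 1878 with limma on log2(RPKM + 0.1), with 726 lower. Leaving out a library gave 2172 to 4590 calls, with 945 to 2173 higher and 1227 to 2417 lower. Calls among zinc transporters numbered 0 in both limma fits and 0 to 5 with a library left out.

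Same-numbered libraries deviated together (r = 0.479 over 14138 genes), but 2 pairs do not establish a pairing. With the replicate number as a block, 6988 genes were called, 3338 higher and 3650 lower, and the set had 2 calls, since SLC30A1 gave 0.36 (adjusted p = 3.09e-05), while MT1X gave -0.0071, and 3 glucocorticoid targets were called. DESeq2 gave no adjusted p for MT1A, MT1L, MT3, MT1DP and MT2P1.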

Other observations

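The control libraries differed from each other in several of the genes described. MT2A stood at 1160 CPM in siNC replicate 1 and 895 CPM in siNC replicate 2, while SLC30A1 stood at 19.2 and 25.2 CPM. The metal-inducible heat shock genes differed more. HSPA1A had 43.3 and 20.3 CPM in the siNC libraries and HSPA1B had 156 and 76.4 CPM, with both siPRR11 libraries between these values for each gene. Their part in the group comparison of MT2A and SLC30A1 was not tested. These 4 genes were chosen for this remark after their values were seen.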
